A study of Mus musculus with 6 samples.

Results

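The genes described here are the subunits of the transcription factor NF-kB and the proteins grouped as its inhibitors. They were taken as the rows of the deposited table whose gene name was Nfkb1, Nfkb2, Rel, Rela, Relb, Nfkbia, Nfkbib, Nfkbie, Nfkbiz or Tnfaip3. All 10 had a row, out of 18908 rows in the table, and all 10 had enough counts to be tested. The study, which by its title concerns osteoclast differentiation, set 3 mouse libraries with a VprBP1 shRNA (genotype label VprBP1 Knockdown) against 3 with a control shRNA (genotype label WT). All 6 are labelled as macrophages derived from bone marrow, with no stimulus, age or strain named. An shRNA is a hairpin RNA used to deplete a chosen transcript, and VprBP is Dcaf1 in current naming, a protein that brings substrates to a cullin ubiquitin ligase. The sources used here give neither the hairpin sequence, its delivery, nor whether replicates were separate cultures or animals, so p-values measure only how these libraries vary, possibly for technical reasons.

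NF-kB is a dimer of 2 proteins that share a Rel homology domain. In resting cells the inhibitors of the IkB family hold the dimers in the cytoplasm, and the IkB kinase complex marks those inhibitors for destruction when a receptor for TNF, interleukin 1 or a microbial product is engaged. A separate noncanonical route, run by the kinase NIK (Map3k14), matures the Nfkb2 precursor p100 into p52, the usual partner of RelB. Several members, among them Nfkbia, Tnfaip3, Nfkb2 and Relb, are themselves target genes of NF-kB, and in osteoclast precursors the pathway acts downstream of the receptor RANK.

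Total counts were 17825340 to 18407356 in the VprBP-labelled and 16839445 to 21838875 in the control-labelled libraries. Most markers of the labelled cell type were missing. Of 12 macrophage markers 7 have no row, Csf1r, Adgre1, Itgam, Spi1 and Tyrobp among them. The other 5 summed to 16.5 to 18.4 CPM (counts per 1000000 after TMM scaling) in the VprBP-labelled and 37.1 to 40.3 CPM in the control-labelled libraries. That difference lay in Cd68, at 1.01 ± 0.270 CPM in VprBP-labelled against 31.6 ± 1.20 CPM in control-labelled libraries, while Mertk and Lyz2 were called higher, Cd14 was not called and Fcer1g was not tested. All 8 pigment cell markers have a row and summed to 19116 to 19690 CPM in the VprBP-labelled and 20924 to 21323 CPM in the control-labelled group, far above the macrophage markers in every library, and the cell type label may be wrong for these values. Within that sum single markers differed in both directions: Tyr and Mitf were 3.79-fold and 3.44-fold higher, Dct was 1.50-fold higher, Pmel, Mlana and Slc45a2 were 2.78-fold, 2.68-fold and 3.81-fold lower, and Oca2 was not called. Tyrp1 stood at 7166 ± 181 CPM in VprBP-labelled and 6778 ± 262 CPM in control-labelled libraries. Of 5 fibroblast markers 4 have a row, summing to 327 to 376 CPM in the VprBP-labelled and 27.2 to 28.99 CPM in the control-labelled libraries. Col1a1 made most of that sum, at 302 ± 28.1 CPM in VprBP-labelled against 14.9 ± 1.07 CPM in control-labelled libraries; Pdgfra was also higher, Dcn was 2.14-fold lower and Lum was not tested. The neutrophil, T and B cell and osteoclast markers summed to at most 2.10 CPM in any library. Transcripts of the mitochondrial genome took 4.89% to 5.56% of the counts in the VprBP-labelled and 8.65% to 9.48% in the control-labelled libraries. The part of these differences in the results below was not tested, and in bulk RNA fewer cells of a type and less RNA per cell cannot be told apart. The targeted transcript, Dcaf1, was lower by 0.24 on the log2 scale (SE 0.07, edgeR adjusted p = 0.00625), at 35.8 ± 1.11 CPM in the VprBP-labelled and 42.1 ± 1.42 CPM in the control-labelled libraries (SD, n = 3 each). Scaled by library size only, it was at -0.12 and not called (edgeR adjusted p = 0.137). The groups are therefore named by their labels, and every direction is a direction between labels.

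Short stretches before a RefSeq start of 4 members are shown because each holds a match to the kB consensus, the motif that NF-kB dimers bind. Of these members, however, 3 were higher and 1 was lower in the VprBP-labelled libraries. Nfkb2, which also has matches that are not printed, was lower. Over all tested genes 37.9% were called higher and 37.0% lower. The stretches come from RefSeq on GRCm38.p6, lie outside every exon annotated in GENCODE M21 and run 5′ to 3′ on the strand of the gene. That of Tnfaip3 lies between exons inside the GENCODE span of the gene, 19000910 to 19015657. It precedes a RefSeq start within the gene, not the GENCODE start. Capitals mark letters that match the kB consensus on either strand, with overlapping matches joined.
Nfkbia, chr12:55492648-55492726, minus strand: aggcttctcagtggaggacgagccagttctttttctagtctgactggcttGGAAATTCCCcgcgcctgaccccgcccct
Tnfaip3, chr10:19015411-19015547, minus strand: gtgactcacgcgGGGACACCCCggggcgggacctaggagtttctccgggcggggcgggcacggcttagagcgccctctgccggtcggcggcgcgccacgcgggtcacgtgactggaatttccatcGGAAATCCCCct
Nfkbie, chr17:45555544-45555653, plus strand: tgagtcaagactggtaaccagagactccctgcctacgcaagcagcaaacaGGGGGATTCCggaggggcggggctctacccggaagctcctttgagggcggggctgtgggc
Rel, chr11:23771001-23771111, minus strand: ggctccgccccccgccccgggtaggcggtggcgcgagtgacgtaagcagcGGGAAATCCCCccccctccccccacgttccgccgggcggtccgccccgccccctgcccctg

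Of the 10 members, 7 had a promoter window of 250 bases before and 50 after a start, and 5 of the 7 held the kB consensus. Nfkb1, Relb and Nfkbiz had no such window. Over all promoter windows the consensus was in 8.46%, and in at least 1 window of 9.55% of the 27025 genes that have one. Nfkbia, Tnfaip3 and Nfkbie were higher in the VprBP-labelled libraries, whereas Rel and Nfkb2, which also held it, were lower. The windows of Rela and Nfkbib did not hold these letters, which says nothing about binding outside them. All 3 windows of Nfkb2 held the consensus, but they lie largely within annotated exons and are not printed.

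All 10 members differed between the labels, with 5 higher and 5 lower under the VprBP label. The background was high, since 75.0% of the 14641 tested genes were called at an edgeR adjusted p below 0.05, 37.9% higher and 37.0% lower. The 2 groups of libraries did not overlap for any of the 10 members, as for 77.2% of all tested genes. Most genes of the table therefore met the same criteria, and the description below rests on which members moved, in which direction and how far. The median log2 difference over the members was -0.07, against -0.01 over all tested genes, and the median size regardless of sign was 0.95 against 0.69. Of the 5 subunits 4 were lower, and of the 5 members grouped as inhibitors 4 were higher. Those 4 include Nfkbiz, an atypical IkB that works in the nucleus.

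**Figure D1:**
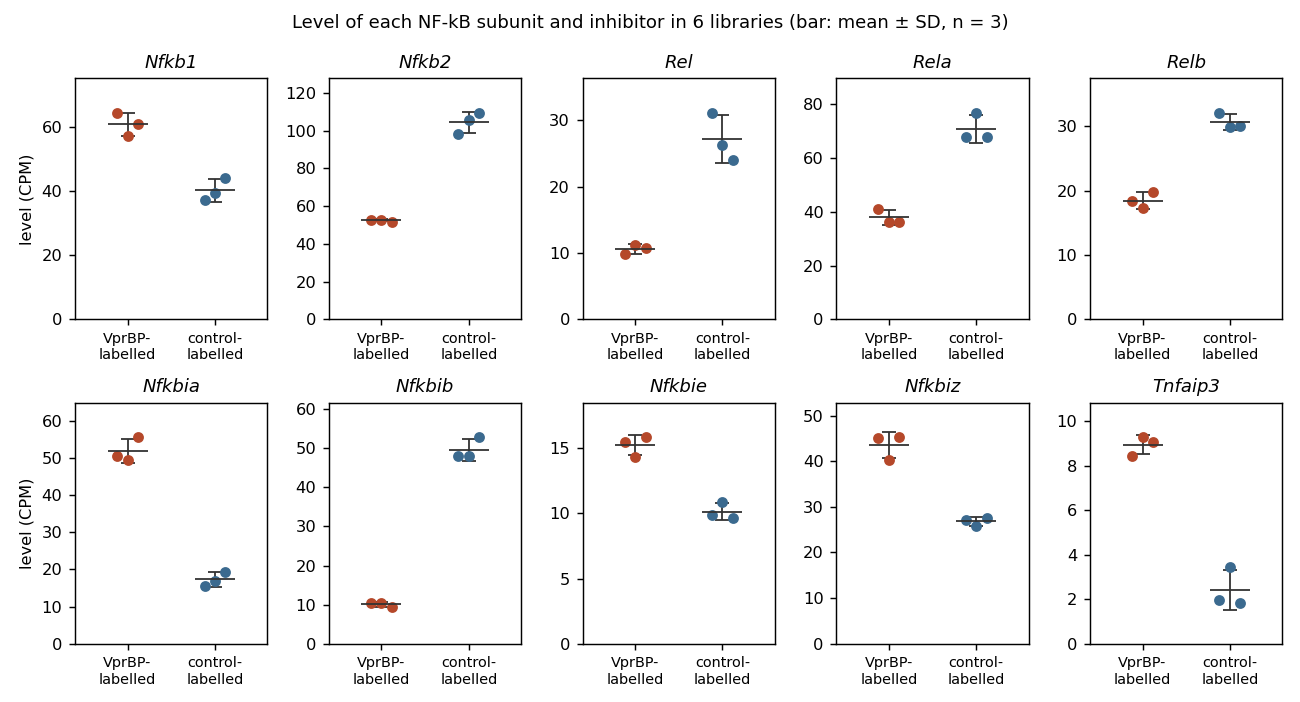
Level of each member in CPM (y axis from 0) in the 3 VprBP-labelled libraries (left, red) and the 3 control-labelled libraries (right, blue), with the mean and SD. Rel, Rela, Relb, Nfkb2 and Nfkbib lie lower in the VprBP-labelled libraries, the other 5 members lie higher, and no member's groups overlap.

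Rela encodes p65, which carries a transactivation domain and is the usual activating partner of p50. It stood at 40.97, 36.2 and 36.3 CPM in VprBP-labelled libraries 1 to 3, against 67.9, 76.7 and 67.7 CPM in control-labelled libraries 1 to 3. The highest VprBP-labelled library stayed well below the lowest control-labelled library. Rela (chromosome 19, 5637483 to 5648130, plus strand, GRCm38) fell by 0.90 on the log2 scale (SE 0.07, edgeR adjusted p = 3.37e-09), a 1.87-fold lower level.

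Rel encodes c-Rel, a subunit with its own transactivation domain that is best known from lymphocytes. Its level was 9.81, 11.2 and 10.8 CPM in VprBP-labelled libraries 1 to 3 and 31.2, 26.3 and 24.1 CPM in control-labelled libraries 1 to 3. The means were 10.6 ± 0.728 CPM in VprBP-labelled and 27.2 ± 3.63 CPM in control-labelled libraries (SD, n = 3 each), so the spread was wider in the control-labelled group, where library 1 was the highest. Every VprBP-labelled value was still below every control-labelled one. Rel (chromosome 11, 23736847 to 23770970, minus strand) had the largest fall of the 5 subunits, -1.36 (SE 0.12, edgeR adjusted p = 6.94e-09).

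Relb, the activating subunit of the noncanonical route, was measured at 18.3, 17.3 and 19.8 CPM in VprBP-labelled libraries 1 to 3 and at 32.1, 29.9 and 30.03 CPM in control-labelled libraries 1 to 3. The difference was -0.73 (SE 0.09, edgeR adjusted p = 8.87e-07), or 1.66-fold lower. Its gene lies on chromosome 7, 19606217 to 19629438, on the minus strand.

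Nfkb2, the source of p100 and p52, was the most abundant member by CPM in the control-labelled libraries. It stood at 52.8, 52.8 and 51.8 CPM in VprBP-labelled libraries 1 to 3 and at 98.1, 105 and 109 CPM in control-labelled libraries 1 to 3. The VprBP-labelled values were nearly equal to each other, with an SD of 0.590 CPM, and 1.99-fold lower (-0.99, SE 0.06, edgeR adjusted p = 3.77e-11). Nfkb2 (chromosome 19, 46304320 to 46312385, plus strand) shares 299 exon bases with Psd and 531 with a noncoding gene on the opposite strand. Since no strand setting is given, reads there cannot be told apart. Psd had 69.0 to 78.2 counts in the VprBP-labelled and 145 to 162 counts in the control-labelled libraries, where Nfkb2 had 977 to 993 counts in VprBP-labelled and 1701 to 2051 counts in control-labelled libraries.

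Nfkb1, the source of p105 and p50, was the only one of the 5 subunits that was higher. Its level was 64.4, 57.2 and 60.9 CPM in VprBP-labelled libraries 1 to 3, against 37.3, 39.3 and 44.2 CPM in control-labelled libraries 1 to 3. The rise of 0.60 (SE 0.08, edgeR adjusted p = 1.17e-06), 1.51-fold, was smaller than that of the typical gene, as 55.3% of tested genes differed by more. Nfkb1 lies on chromosome 3, 135584655 to 135691547, minus strand.

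The 2 subunits that are made as precursors thus moved in opposite directions. The log2 ratio of Nfkb2 to Nfkb1 counts, which does not depend on library scaling, was -0.29, -0.12 and -0.23 in the VprBP-labelled libraries and 1.40, 1.42 and 1.31 in the control-labelled libraries. The ratio was 3.01-fold lower and its groups did not overlap. A two-sided exact permutation test gave p = 0.1, the lowest value that 3 libraries a group can reach, and 0.14 after Benjamini-Hochberg adjustment over the 7 ratios computed. The log2 ratio of Relb to Rela was -1.03 ± 0.147 in the VprBP-labelled and -1.20 ± 0.143 in the control-labelled libraries (SD, n = 3 each), with overlapping groups (exact permutation p = 0.2, adjusted 0.233). The log2 ratio of Rel to Rela was -1.83 ± 0.20 in the VprBP-labelled and -1.39 ± 0.230 in the control-labelled group, without overlap (exact permutation p = 0.1, adjusted 0.14).

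Nfkbia encodes IkB alpha, an inhibitor that NF-kB itself rapidly induces and that ends a pulse of activity. It was higher in every VprBP-labelled library, at 50.7, 49.6 and 55.6 CPM, against 15.6, 16.97 and 19.3 CPM in control-labelled libraries 1 to 3. The rise was 3.01-fold (log2 1.59, SE 0.09, edgeR adjusted p = 1.74e-11), and 18.0% of tested genes differed by more. The kB match printed above begins 29 bases before the start. The gene spans chromosome 12, 55489410 to 55492647, minus strand.

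Nfkbib encodes IkB beta, a close relative of IkB alpha that is degraded more slowly. It was lower, and its difference was the largest among the members, at 10.5, 10.4 and 9.28 CPM in VprBP-labelled libraries 1 to 3 against 47.9, 48.01 and 52.8 CPM in control-labelled libraries 1 to 3. The level was 4.93-fold lower (log2 -2.30, SE 0.09, edgeR adjusted p = 1.05e-13), and only 9.59% of tested genes differed by more. Nfkbib (chromosome 7, 28758251 to 28767512, minus strand) shares 42 exon bases with Sirt2, which had 1151 to 1196 counts in the VprBP-labelled and 896 to 1209 in the control-labelled libraries, and 314 with Ccer2, which has no row.

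The 2 classical inhibitors thereby changed places. The log2 ratio of Nfkbia to Nfkbib was 2.28, 2.25 and 2.58 in the VprBP-labelled libraries and -1.62, -1.50 and -1.45 in the control-labelled libraries, a 14.9-fold difference (exact permutation p = 0.1, adjusted 0.14). Nfkbia was the more counted of the 2 in every VprBP-labelled library and the less counted in every control-labelled one. The log2 ratio of Nfkbia to Rela, inhibitor to its main bound subunit, was 0.46 ± 0.155 in the VprBP-labelled and -2.03 ± 0.199 in the control-labelled libraries (exact permutation p = 0.1, adjusted 0.14).

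**Figure D2:**
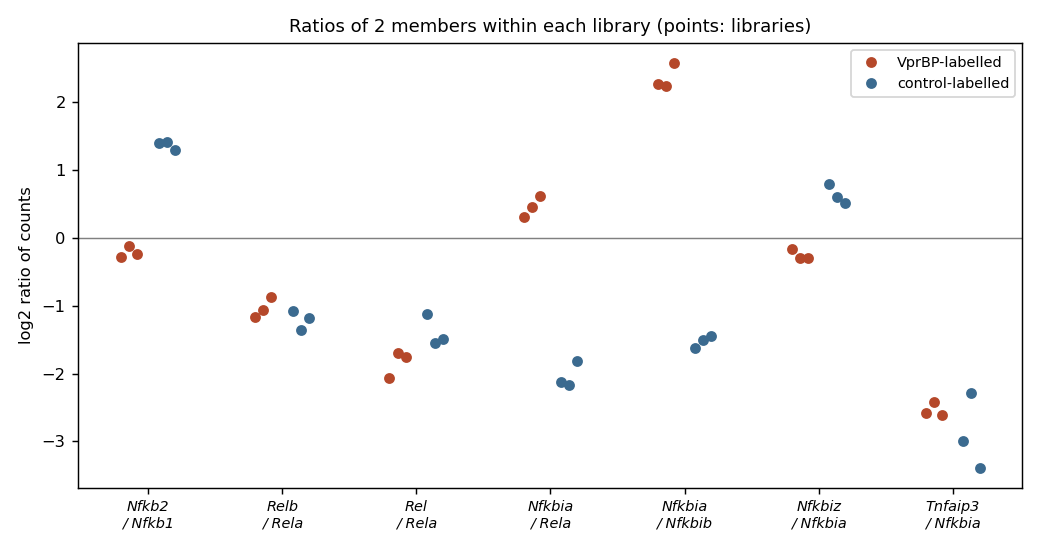
Log2 ratio of the counts of 2 members within each library (y axis), for VprBP-labelled (red, left of each pair) and control-labelled libraries (blue, right). The Nfkbia to Nfkbib ratio lies above 2 in the VprBP-labelled libraries and below -1 in the control-labelled ones, whereas the Relb to Rela and Tnfaip3 to Nfkbia ratios overlap.

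Nfkbie encodes IkB epsilon, the third cytoplasmic inhibitor. Its level was 15.5, 14.4 and 15.9 CPM in the VprBP-labelled and 9.86, 10.9 and 9.67 CPM in control-labelled libraries 1 to 3. The rise of 0.59 (SE 0.12, edgeR adjusted p = 0.00028), 1.50-fold, was the smallest of the 10 differences. Its gene lies on chromosome 17, 45555703 to 45563169, plus strand.

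Nfkbiz encodes IkB zeta, an atypical family member that works in the nucleus on a subset of NF-kB target genes. It stood at 45.1, 40.3 and 45.3 CPM in VprBP-labelled libraries 1 to 3 and at 27.1, 25.8 and 27.6 CPM in control-labelled libraries 1 to 3. It was 1.62-fold higher (log2 0.70, SE 0.08, edgeR adjusted p = 2.6e-07), less than Nfkbia, and the log2 ratio of Nfkbiz to Nfkbia was -0.25 ± 0.0757 in the VprBP-labelled and 0.64 ± 0.145 in the control-labelled group (exact permutation p = 0.1, adjusted 0.14). Nfkbiz lies on chromosome 16, 55811375 to 55838899, minus strand.

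Tnfaip3 encodes A20, an enzyme that edits ubiquitin chains and shuts off signalling upstream of the kinase complex. It was the scarcest member, with 157, 172 and 174 counts in the VprBP-labelled and 41, 56 and 31 counts in the control-labelled libraries, or 8.46, 9.29 and 9.07 CPM in VprBP-labelled against 1.96, 3.47 and 1.85 CPM in control-labelled libraries. Control-labelled library 2 was the highest of its group and still below every VprBP-labelled library. The rise was 3.71-fold (log2 1.89, SE 0.23, edgeR adjusted p = 6.35e-07), the largest rise among the members and the least precise. Its 95% interval, 1.41 to 2.37, included the change of Nfkbia, and the Tnfaip3 to Nfkbia ratio overlapped between the groups (exact permutation p = 0.4). The gene lies on chromosome 10, 19000910 to 19015657, minus strand. The stretch printed above lies inside this span and holds 2 kB matches.

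**Figure D3:**
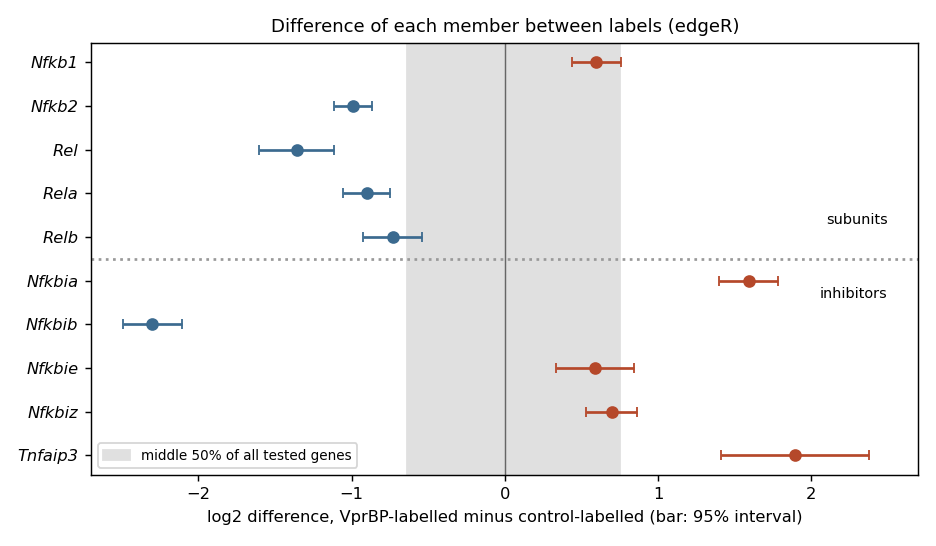
Log2 difference of each member, VprBP-labelled minus control-labelled (x axis), with its edgeR 95% interval. Subunits are above the dotted line and the members grouped as inhibitors, Nfkbiz among them, below it. The grey band holds the middle 50% of all tested genes, -0.64 to 0.75. Nfkb1, Nfkbie and Nfkbiz lie within the band and the interval of Relb reaches it, whereas the other 6 members lie outside it.

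Levels of different genes were compared per length, as CPM per kb of exon in GENCODE M21. In the VprBP-labelled libraries Nfkbia led, at 32.3 ± 2.01 CPM per kb, the 90.04th percentile of 12369 tested protein-coding genes. Rela (12.3 ± 0.885) and Nfkb2 (11.4 ± 0.129 CPM per kb) followed. Nfkb1, Nfkbie, Relb and Nfkbib, at 4.64 to 5.04 CPM per kb, had ranges that overlapped one another, but not those of Nfkbiz above them or Rel below them. This place of Nfkb1 depends on the length used: with the longest transcript as length it stood at 14.7 ± 0.872 CPM per kb in VprBP-labelled libraries, the second place, and at 9.70 ± 0.863 CPM per kb in control-labelled libraries. In the control-labelled libraries Rela (23.03 ± 1.68), Nfkbib (22.9 ± 1.30) and Nfkb2 (22.8 ± 1.24 CPM per kb) stood level at the top and their ranges overlapped, with Nfkbia below them at 10.7 ± 1.18. By exon length Tnfaip3 was the lowest in both groups, at 1.24 ± 0.0592 CPM per kb in VprBP-labelled and 0.336 ± 0.125 CPM per kb in control-labelled libraries. By the longest transcript Tnfaip3 (1.44 ± 0.0690 CPM per kb) and Rel (1.42 ± 0.0975 CPM per kb) overlapped at the bottom of the VprBP-labelled order.

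Summed per length, the 5 subunits made 34.98 ± 1.14 CPM per kb in the VprBP-labelled and 60.7 ± 1.70 CPM per kb in the control-labelled libraries, and the 3 cytoplasmic inhibitors made 41.9 ± 1.92 CPM per kb in VprBP-labelled and 36.9 ± 2.34 CPM per kb in control-labelled libraries (SD, n = 3 each). Inhibitor transcript per subunit transcript was therefore 1.20 ± 0.0646 in the VprBP-labelled and 0.609 ± 0.0389 in the control-labelled libraries. The make-up of the inhibitor pool differed between the labels. Nfkbia made 77.0% ± 1.30 of it in the VprBP-labelled and 29.04% ± 1.35 in the control-labelled libraries, and Nfkbib made 11.1% ± 1.20 in VprBP-labelled and 61.9% ± 1.05 in control-labelled libraries. Within the subunit pool the share of Rela was 35.2% ± 1.45 in VprBP-labelled and 37.9% ± 1.85 in control-labelled libraries, and that of Nfkb2 was 32.7% ± 1.04 in VprBP-labelled and 37.5% ± 1.68 in control-labelled libraries. Nfkb1 made 14.4% ± 0.415 of the pool in the VprBP-labelled and 5.50% ± 0.482 in the control-labelled libraries. Its length is the least certain, since its exons cover 12061 bases in all but its longest transcript 4149. With the longest transcript as length the share of Nfkb1 was 29.7% ± 0.702 in VprBP-labelled and 12.8% ± 1.01 in control-labelled libraries, and the inhibitor to subunit ratio was 0.870 ± 0.0467 in VprBP-labelled and 0.506 ± 0.0282 in control-labelled libraries. These sums are transcript levels and say nothing of protein.

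**Figure D4:**
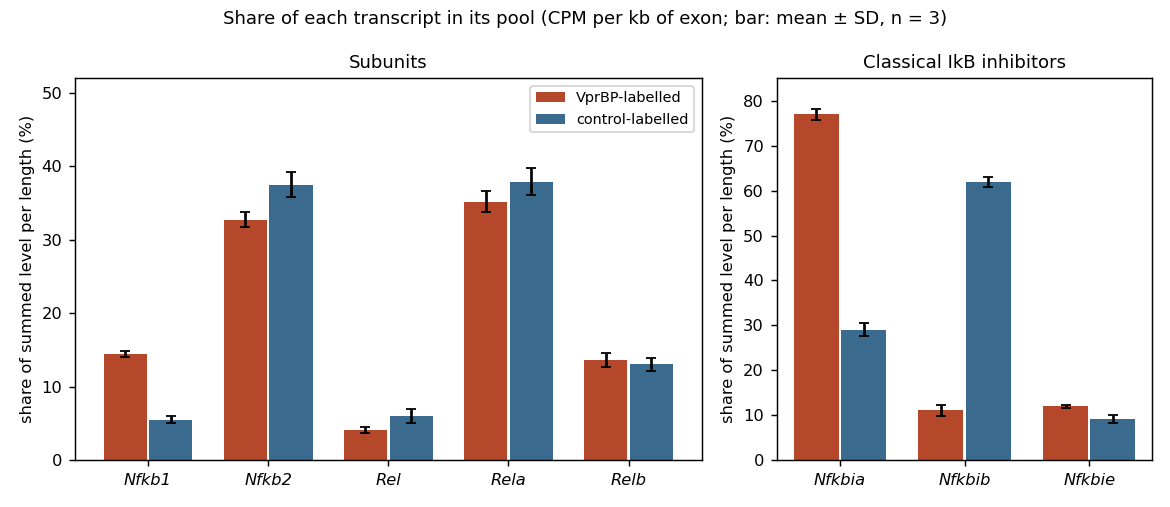
Share in percent (y axis from 0) of each transcript in the summed level per length of the 5 subunits (left panel) and of the 3 cytoplasmic IkB inhibitors (right panel), mean and SD of 3 VprBP-labelled (red) and 3 control-labelled libraries (blue). The inhibitor pool is mostly Nfkbia (77.0%) in the VprBP-labelled and mostly Nfkbib (61.9%) in the control-labelled libraries.

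The rest of the pathway was read from 7 lists by role, 114 genes in all, of which 103 have a row and 92 were tested. Under the VprBP label 43 of the 92 were higher and 32 lower, and 17 were not called, a share of 81.5% called against the 75.0% of all genes. By direction, 37.9% of all tested genes were called higher and 37.0% lower, to be read beside the counts of each list. For each list the genes named are the called ones with the highest levels; Ikbkg, Btrc, Irak4, Tnf, Sod2 and those of the noncanonical route were added after their values were seen.

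**Figure D5:**
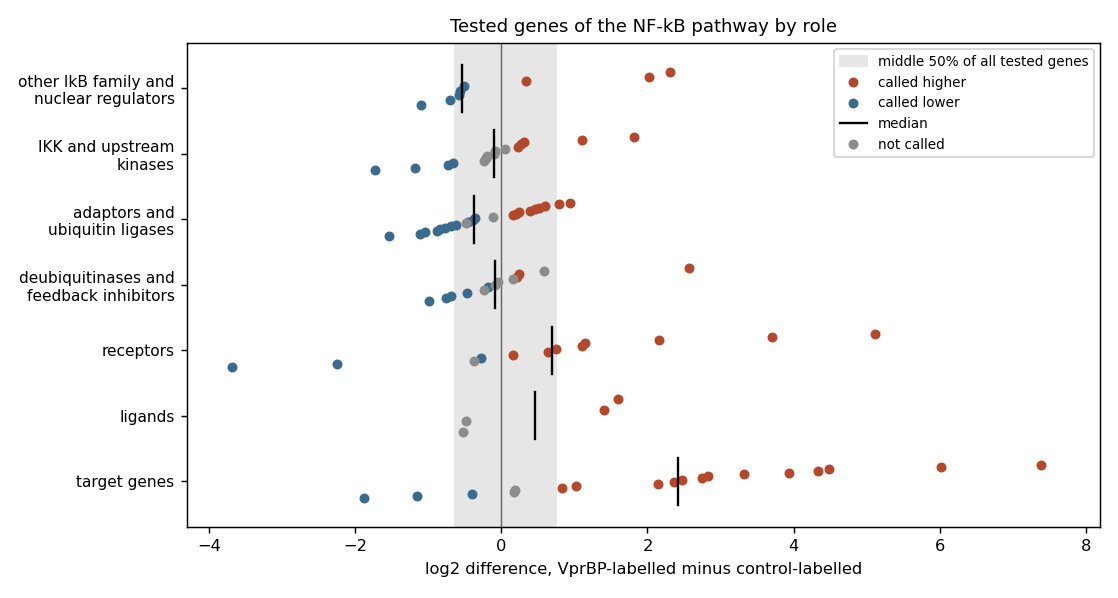
Log2 difference, VprBP-labelled minus control-labelled (x axis), of each tested gene in the 7 role lists, with red for called higher, blue for called lower, grey for not called, and a black line for the median of the list. Target genes lie furthest to the right, with a median of 2.42, while the medians of kinases, adaptors and feedback inhibitors lie between -0.37 and -0.09. Some target genes and receptors passed the count filter only through the VprBP-labelled libraries, and the receptor Tlr6 only through the control-labelled ones.

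Among other members of the IkB family and regulators of nuclear NF-kB, 3 of 8 tested were higher and 5 lower, with a median log2 difference of -0.54. Bcl3, an atypical IkB that binds p50 and p52 in the nucleus, was 4.94-fold higher, at 56.1 ± 1.57 CPM in the VprBP-labelled and 11.4 ± 0.195 CPM in the control-labelled libraries (edgeR adjusted p = 1.94e-14). Pdlim2, a nuclear ubiquitin ligase for p65, was 4.06-fold higher, and Commd1, which also promotes removal of p65, 1.26-fold higher. Nkiras2, a small Ras-like protein that slows the loss of IkB, fell 2.14-fold, and the repressor Nkrf 1.42-fold. Nfkbid has no row.

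Of 15 tested kinases at and above the IkB kinase complex, 5 were higher, 5 lower and 5 not called (median -0.10). The 3 core subunits of the complex did not share a direction. Chuk (IKK alpha) stood at 47.3 ± 2.90 CPM in the VprBP-labelled and 108 ± 5.22 CPM in the control-labelled libraries, 2.28-fold lower (edgeR adjusted p = 6.79e-12). Ikbkb (IKK beta) was 1.18-fold higher, at 60.98 ± 3.08 CPM in VprBP-labelled against 51.9 ± 0.794 CPM in control-labelled libraries, and the scaffold Ikbkg (NEMO) was not called, at 64.9 ± 0.582 CPM in VprBP-labelled against 62.7 ± 2.83 CPM in control-labelled libraries. With scaling by library size only Ikbkg was called, at 0.17 (edgeR adjusted p = 0.0196). Of the 2 IKK-related kinases, Ikbke rose 3.53-fold and Tbk1 fell 1.66-fold. Map3k7 (TAK1), which activates the complex, rose 1.20-fold and its binding partner Tab1 fell 1.58-fold.

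Adaptors and ubiquitin ligases were split, with 9 of 22 higher, 11 lower and 2 not called (median -0.37). Cul1, Fbxw11 and Skp1a, parts of the SCF ligase that marks phosphorylated IkB, rose 1.32-fold, 1.19-fold and 1.15-fold, although the groups overlapped for Skp1a, which was not called without control-labelled library 2 (edgeR adjusted p = 0.0578). The fourth part on the list, Btrc, rose 1.52-fold. Traf3 fell 1.29-fold, Sharpin, a subunit of the linear ubiquitin ligase, 1.30-fold, and Ticam1 (TRIF), the adaptor of TLR3 and TLR4, 2.91-fold. From the lists, 8 adaptors and kinases below the Toll-like and interleukin 1 receptors were grouped after their values were seen. Beside 37.0% lower and 37.9% higher over all tested genes, 4 of the 8 were lower, 1 higher, 2 not called and 1 not tested. The lower ones were Ticam1, Myd88 (2.16-fold), Tirap (1.80-fold) and Traf6 (1.71-fold), and the higher one was the kinase Irak4 (1.23-fold), which was not called without VprBP-labelled library 3 or control-labelled library 1 (edgeR adjusted p = 0.0889 and 0.0881).

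Of 13 tested feedback inhibitors other than A20, 3 were higher, 5 lower and 5 not called (median -0.09). Usp18, a protease that also restrains interferon signalling, rose 5.96-fold, the ubiquitin ligase Itch 1.16-fold and the deubiquitinase Cyld 1.18-fold. Rnf11 and Tnip1, partners of A20, fell 1.61-fold and 1.14-fold, and the deubiquitinase Otud7b 1.39-fold. Itch was not called without VprBP-labelled library 2 or control-labelled library 2 or 3 (edgeR adjusted p = 0.0534 to 0.0673), nor Cyld without VprBP-labelled library 1 or control-labelled library 1 or 2 (0.0671 to 0.086). Tnip1 lost its call without library 2 of either group and with scaling by library size only (0.0561 to 0.316). A20 itself rose 3.71-fold.

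Among receptors 8 of 12 tested were higher, 3 lower and 1 not called (median 0.69), beside 37.9% higher and 37.0% lower over all tested genes. Of the higher ones, Tnfrsf1b (0, 3 and 11 control-labelled counts) and Tlr1 (9, 4 and 4) passed the count filter only through the VprBP-labelled libraries. Tnfrsf11a, which encodes RANK, has no row. Tnfrsf1a, the main TNF receptor, rose 1.56-fold, at 367 ± 9.76 CPM in the VprBP-labelled and 236 ± 4.39 CPM in the control-labelled libraries. Tlr3, a sensor of double-stranded RNA, rose 2.15-fold and Ltbr, the lymphotoxin beta receptor, 1.12-fold. Tnfrsf12a (Fn14), the receptor of TWEAK, had the largest fall in all 7 lists, 12.9-fold, at 49.8 ± 3.45 CPM in the VprBP-labelled and 641 ± 48.4 CPM in the control-labelled libraries (edgeR adjusted p = 1.43e-18). Ltbr was not called without control-labelled library 1 (edgeR adjusted p = 0.0503). Tlr4 fell 1.21-fold, and was not called with scaling by library size only (edgeR adjusted p = 0.0871), and Tlr6, with 0.351 ± 0.332 CPM in VprBP-labelled against 1.69 ± 0.625 CPM in control-labelled libraries, 4.75-fold. Tlr6 had only 2, 4 and 14 counts in VprBP-labelled libraries 1 to 3, and its log2 difference of -2.25 became -3.33 without VprBP-labelled library 3. Tlr6 passed the count filter only through the control-labelled libraries, so only a lower call was open to it. Ligands were scarce. Of 10, 3 have no row, 3 did not pass the count filter and 4 were tested. Tnfsf12 (TWEAK) rose 3.03-fold, at 5.67 ± 1.12 CPM in VprBP-labelled against 1.88 ± 0.174 CPM in control-labelled libraries, and Il18 2.65-fold, at 3.02 ± 0.560 CPM in VprBP-labelled against 1.13 ± 0.113 CPM in control-labelled libraries. Tnf stood at 2.71 ± 0.464 CPM in the VprBP-labelled and 3.89 ± 0.799 CPM in the control-labelled group and was not called (edgeR adjusted p = 0.0893), but was called lower without control-labelled library 1 (0.04).

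Genes of the noncanonical route were grouped from these lists and the members after their values were seen, so their count is only a description. Of 12, 8 were lower and 3 higher, beside 37.0% lower and 37.9% higher over all tested genes, and Cd40 did not pass the count filter. Map3k14, the NIK kinase, stood at 9.59 ± 1.50 CPM in the VprBP-labelled and 31.7 ± 1.14 CPM in the control-labelled libraries, 3.30-fold lower (edgeR adjusted p = 1.42e-10). Besides it, the receptor Tnfrsf12a, the kinase Chuk, both subunits Nfkb2 and Relb, and Traf2, Traf3 and Birc2, which hold NIK low in resting cells, were lower, by 1.29-fold (Traf3) to 12.9-fold (Tnfrsf12a). The 3 that were higher were the ligand Tnfsf12, the receptor Ltbr and Birc3, which restrains NIK beside Birc2. Birc3 stood at 6.57 ± 2.11 CPM in the VprBP-labelled and 3.42 ± 0.393 CPM in the control-labelled libraries. The group mixes parts that drive the route with parts that hold NIK low, so its count gives no direction of the route.

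Target genes other than the members were mostly higher. Among the 18 tested, 13 were called higher, 3 lower and 2 neither, beside 37.9% higher and 37.0% lower over all tested genes. The median log2 difference was 2.42, against -0.01 over all tested genes. Vcam1, Cxcl2, Ccl2, Ccl20 and Plau had at most 8 counts in any control-labelled library. Mmp9 had 10, 11 and 9 counts in control-labelled libraries 1 to 3. All of these genes passed the count filter only through the VprBP-labelled libraries. Only a higher call was therefore open to them, and they help set the median. Some of the target genes were in earlier results of these data, so the count is a description. Of the fibroblast markers Col1a1 and Pdgfra were also higher and Dcn was lower, as given above, and their part in this result was not tested. Csf1, the macrophage growth factor, rose 7.11-fold, at 327 ± 7.27 CPM in the VprBP-labelled and 46.03 ± 0.984 CPM in the control-labelled libraries (edgeR adjusted p = 1.79e-18). The adhesion molecule Icam1 rose 2.03-fold and the neutrophil chemokine Cxcl1 by 3.32 on the log2 scale, at 93.3 ± 5.51 CPM in VprBP-labelled against 9.31 ± 0.503 CPM in control-labelled libraries. Lower were Cxcl10, a chemokine for T cells (3.69-fold), the early response gene Ier3 (1.32-fold) and Ccl5, another chemokine (2.22-fold). Sod2, a mitochondrial superoxide dismutase, was not called, at 62.5 ± 4.13 CPM in the VprBP-labelled and 55.7 ± 5.82 CPM in the control-labelled libraries (edgeR adjusted p = 0.055), although 7 of 15 alternative fits called it higher. Il6, Nos2, Ptgs2 and Csf2 did not pass the count filter, and Bcl2a1b and Nuak2 have no row.

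The genes whose profile over the 6 libraries was nearest to a member, by Euclidean distance of centred log2 CPM among 9424 other protein-coding genes whose mean was 10 CPM or more, were Cfap410, Fbln1 and Herc3 for Nfkbia. For Nfkb1 they were Mtch1, Lamtor2 and Grcc10, and for Nfkb2 Txn2, Zfand5 and Asna1. Distances ran from 0.041 for Mtch1 to 0.179 for Herc3. As the 6 libraries hold 2 labels, this likeness is mostly an equal difference between the labels, such as 1.57 for Cfap410 and 1.59 for Nfkbia on the log2 scale.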

How the data were processed

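Per the labels' protocols, total RNA came from an RNeasy kit and sequencing libraries from a SMARTer kit for mRNA. The authors deposited expected counts (estimated counts) per gene, not scaled between libraries. Partek and build mm10 were used, per the submitters' processing notes; no source used here names an aligner, a counting tool, a strand setting or an annotation. The lowest total of a row over the 6 libraries was 10 counts. Of 18908 gene IDs, 18501 matched GENCODE M21 (GRCm38), which gave coordinates and lengths.

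The deposited values, rounded, went into edgeR 4.0.16 under R 4.3.3 (filterByExpr, TMM, quasi-likelihood F test, group as the only term), with Benjamini-Hochberg adjustment over 14641 genes and a threshold of 0.05. Standard errors come from the F statistic. A count of 0 allows up to 0.144 to 0.186 CPM (3 counts), counting error only. Ratios of members used two-sided exact permutation tests in SciPy 1.17.1. Alternatives included DESeq2 1.42.0 and limma 3.58.1 (voom). The genes named were all 10 members, Dcaf1 and, per list, up to 3 called higher and 3 called lower with the highest mean CPM; others are said to be chosen later or are needed to complete a group. For 1 gene that the rule picks, the result is not reported here. The members and lists were chosen with earlier results of these data known. No 2 libraries of a group agreed within sampling noise.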

Additional observations from a re-analysis of the deposited data

How the results depend on the processing

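The 5 rises and 5 falls of the members were called in all 15 alternative fits: DESeq2 size factors, library size only, upper quartile scaling, libraries without mitochondrial genes, no filter, unrounded counts, a replicate block, DESeq2, limma-voom and each library left out. All 150 member values kept direction and call. The widest range was that of Tnfaip3, 1.73 to 2.22 on the log2 scale, both with a library left out. Scaling by library size only shifted the all-gene median by 0.12 and gave 6160 genes higher and 4719 lower. Under it Dcaf1 was at -0.12 and not called (edgeR adjusted p = 0.137), with a range of adjusted p of 0.00327 to 0.137 over its 15 alternatives. Of 825 alternative values for 55 pathway genes, 14 lost the call, 9 gained one, 7 of these Sod2, and 0 changed direction. Left-out libraries gave 0 to 1 lower ligands, the 1 being Tnf without control-labelled library 1, with 2 alone left in that group. With the longest transcript as length, 2 members in the VprBP-labelled and 3 in the control-labelled libraries kept their place in the order of levels. Likeness by correlation kept 0 of the 3 genes nearest to Nfkbia, 1 of 3 for Nfkb1 and 0 of 3 for Nfkb2. Correlation, unlike distance, does not depend on the size of a difference. Its 3 genes nearest to Nfkbia, Ryk, Tle6 and Myo1c, had log2 differences of 0.50, 1.84 and 0.32, against 1.59 for Nfkbia.

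The replicate numbers of the titles did not pair the libraries. Deviations of same-numbered libraries correlated at -0.0324, 0.00664 and -0.0422 across genes, and no library correlated best with its own number. With the replicate block 5395 genes were higher and 5254 lower, and the members stayed at 5 and 5. Tnfaip3 had only 31 to 56 counts per control-labelled library, and the part of counting error in its spread was not tested.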

Other observations

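The gene targeted by the shRNA overlaps a gene that differed strongly between the labels. Dcaf1 shares 146 exon bases with Manf, a secreted factor of the endoplasmic reticulum encoded on the opposite strand, and 75 with Rbm15b. Manf had 2370 to 2743 counts in the VprBP-labelled and 21262 to 27516 counts in the control-labelled libraries, where Dcaf1 had 640 to 705 counts in VprBP-labelled and 681 to 882 counts in control-labelled libraries. With no strand setting given, reads in the shared bases cannot be told apart, and their part in the small Dcaf1 difference was not tested.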
